A study of Mus musculus with 4 samples.

Results

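The 9 genes described here are the core of the mouse Hedgehog pathway: the ligands Shh, Ihh and Dhh, the receptor-side genes Ptch1, Smo and Hhip, and the transcription factors Gli1, Gli2 and Gli3. They were chosen by name, and each had a single probe set annotated to it alone, so all 9 were measured among 22180 genes. RNA came from P19, a mouse embryonal carcinoma line, on Affymetrix arrays with 1 array for each of 4 conditions. The Ctcfl line was a P19 clone stably carrying pBI-EGFP-FLAG-mCtcfl and pTA-N, a Tet-Off system in which doxycycline represses Ctcfl, a testis paralog of the insulator protein Ctcf, and from which 2 µg/ml doxycycline had been withdrawn 2 days before extraction. Wild-type P19 cells are labelled WT for the stable integrate, and their labels conflict on doxycycline, giving ordinary medium in one place and 2 µg/ml doxycycline in another. Within each line, cells had 10 µM retinoic acid for 4 days or were undifferentiated, with ethanol as the vehicle. Because the Ctcfl line was 1 clone, the effects of Ctcfl, of the vectors, of doxycycline and of clonal origin cannot be told apart.

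Hedgehog ligands bind Patched, and this frees Smoothened to act at the primary cilium, where Gli2 and Gli3 are turned from repressors into activators of transcription. Gli1, Ptch1 and Hhip are themselves transcribed in response to the signal, so their RNA is widely used as a readout of it, and Ptch1 and Hhip then hold the ligand back. In the embryo Sonic hedgehog from notochord and floor plate patterns the ventral neural tube, Indian hedgehog acts in visceral endoderm and bone, and Desert hedgehog acts in testis and nerve sheath. Retinoic acid turns P19 cells towards neural and other embryonic fates.

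The values are log2 signals made by the authors with RMA, a method that corrects background, normalizes between arrays and gives 1 value for each probe set. Genes whose highest signal was at least log2 6 were compared; 18310 genes were past this limit, all 9 Hedgehog genes among them. As a guide to background, the 95th percentile of 1108 probe sets of olfactory receptor genes lay between log2 6.82 and 6.95 on the 4 arrays. Single arrays give no biological error. The technical spread was taken from 874 genes with several probe sets, as the SD of log2 differences among probe sets of the same gene. It lay between 0.226 and 0.331 across the comparisons. Probe sets of a gene share the same RNA and array, so this technical SD leaves out error between preparations and arrays. Ctcfl, the transgene's own gene, had log2 signals of 9.56 in the Ctcfl line and 7.13 in wild type with retinoic acid, and of 10.41 in the Ctcfl line and 7.86 in wild type without it.

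Shown first are the promoters of the 4 genes on which the results turn, as the 250 bases before the start site in RefSeq (build GRCm38.p6), 5′ to 3′ on the gene's own strand. Hhip is at chr8:80058009-80058258 on the minus strand, Gli2 at chr1:119053620-119053869 on the minus strand, Gli3 at chr13:15463473-15463722 on the plus strand and Smo at chr6:29735247-29735496 on the plus strand. Capitals in Hhip mark a match to GGNGGCAG, a core of the Ctcf consensus, and capitals in Gli2 and Gli3 mark the GC box GGGCGG; neither is in Smo.
Hhip: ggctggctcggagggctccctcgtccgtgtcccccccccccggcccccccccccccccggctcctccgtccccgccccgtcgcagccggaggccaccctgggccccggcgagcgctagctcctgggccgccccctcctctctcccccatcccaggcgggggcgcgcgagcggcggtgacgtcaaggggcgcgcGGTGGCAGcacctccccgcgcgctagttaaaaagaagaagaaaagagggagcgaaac
Gli2: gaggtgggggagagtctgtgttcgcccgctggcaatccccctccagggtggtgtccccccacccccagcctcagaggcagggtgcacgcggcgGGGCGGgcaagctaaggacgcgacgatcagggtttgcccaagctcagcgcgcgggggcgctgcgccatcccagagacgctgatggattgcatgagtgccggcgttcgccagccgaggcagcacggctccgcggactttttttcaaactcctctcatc
Gli3: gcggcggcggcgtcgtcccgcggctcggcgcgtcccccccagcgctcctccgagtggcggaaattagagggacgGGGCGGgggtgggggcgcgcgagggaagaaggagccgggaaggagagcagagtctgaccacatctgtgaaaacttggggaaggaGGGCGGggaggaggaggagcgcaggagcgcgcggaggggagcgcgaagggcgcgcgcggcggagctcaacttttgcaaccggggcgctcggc
Smo: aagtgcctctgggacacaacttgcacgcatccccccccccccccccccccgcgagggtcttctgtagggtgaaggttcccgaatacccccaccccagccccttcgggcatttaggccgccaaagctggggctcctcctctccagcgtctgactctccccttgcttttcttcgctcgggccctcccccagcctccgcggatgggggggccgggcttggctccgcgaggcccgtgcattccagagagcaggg

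These 4 windows are rich in G and C, at 76.0% for Hhip, 67.2% for Gli2, 72.8% for Gli3 and 68.4% for Smo, against a median of 52.4% over 32817 windows of the same length. The Hhip match runs from base -57 to base -50 before the start site. This motif was picked after the Hhip sequence was seen; both strands were searched, and 9.94% of all windows held it, the Ihh window among them. The GC box, whose letters do not overlap the marked core in Hhip, was in 32.7% of all windows and in those of Dhh, Gli2, Gli3, Hhip, Ihh and Ptch1. The Gli consensus GACCACCCA was in 0.225% of windows and in 0 of the Hedgehog windows. RefSeq windows were matched for 7 of the 9 genes, the other two being Shh and Gli1. A match is a run of letters in a window and not a site of binding.

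**Figure D1:**
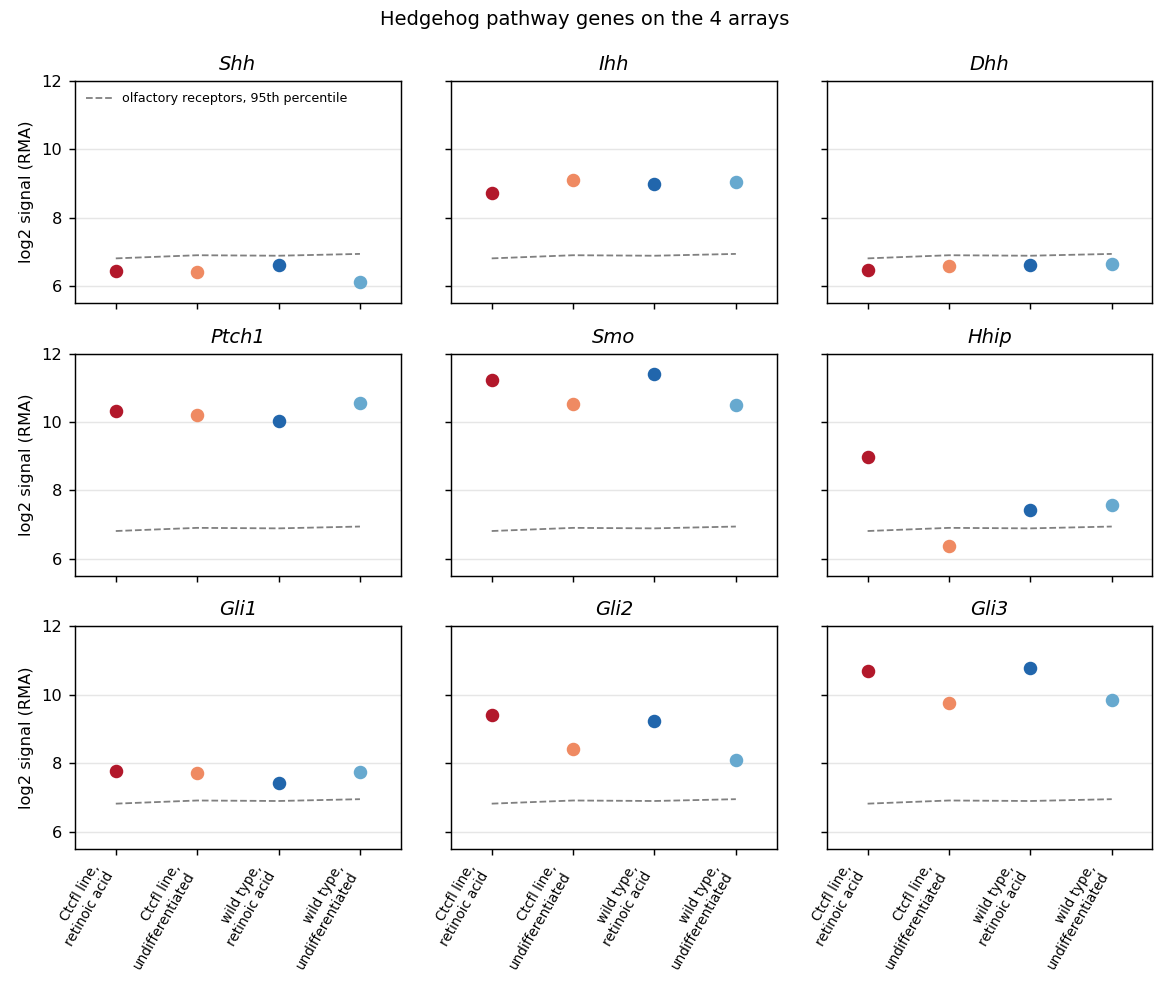
Log2 signal of each Hedgehog gene on the 4 arrays, with 1 point for each array and a dashed line at the 95th percentile of olfactory receptor probe sets on that array. Smo, Gli2 and Gli3 are higher in both retinoic acid arrays, Hhip spans log2 6.37 to 8.98, and all points of Shh and Dhh lie below the line.

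None of the 3 ligand genes passed the test for retinoic acid, and only Ihh had a signal clear of background. Shh, the ligand of the floor plate, had log2 signals of 6.45 with retinoic acid and 6.42 without it in the Ctcfl line, and of 6.62 with it and 6.13 without it in wild type. Dhh, the testis ligand, had 6.48 and 6.58 in the Ctcfl line and 6.62 and 6.66 in wild type, in the same order of states. Both genes were below the olfactory receptor 95th percentile on 4 of 4 arrays, so their differences are not read as changes of RNA. Ihh, the ligand of visceral endoderm and cartilage, was above that percentile on all 4 arrays. Its log2 signals were 8.72 with retinoic acid and 9.11 without it in the Ctcfl line, and 8.99 with it and 9.04 without it in wild type. The lowest Ihh signal was thus that of the Ctcfl line in retinoic acid, and the other 3 arrays differed from each other by less than the technical SD. Limma was fitted over all genes with additive terms for retinoic acid and for the line. At an adjusted p of 0.05, 0 of the 3 ligand genes passed for retinoic acid, where 4.21% of all genes rose and 2.44% fell. An unadjusted p under 0.05 was found for 0 of the 3 and for 23.5% of all genes, and 3 genes are too few to set against such shares. The ligand genes had adjusted p-values in limma of 0.413 for Shh, 0.447 for Ihh and 0.818 for Dhh. This fit leaves 1 residual degree of freedom and uses the unequal response of the lines as its error, so its p-values rest on single arrays of each condition.

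A further probe set carries the names of both Shh and another gene and was assigned to neither. Its log2 signals were 6.50 with retinoic acid and 6.57 without it in the Ctcfl line, and 8.04 with it and 6.44 without it in wild type. It stood above the olfactory receptor 95th percentile on the wild-type retinoic acid array alone.

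Smo, the signal-transducing receptor, was higher with retinoic acid in both lines. Its log2 signals were 11.22 with retinoic acid and 10.52 without it in the Ctcfl line, and 11.42 with it and 10.49 without it in wild type. Both retinoic acid arrays were above both undifferentiated arrays, and the lines differed by log2 -0.19 in retinoic acid and 0.04 in undifferentiated cells, less than the technical SD. Averaged over the lines, Smo rose 1.76-fold (log2 0.81 ± 0.15, SE, 4 arrays, adjusted p = 0.0311 in limma), and it was higher in 2 of 2 lines.

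Among the transcription factors, Gli2 and Gli3 rose and Gli1 did not pass. Gli2, the main activator of the pathway, had log2 signals of 9.42 with retinoic acid and 8.42 without it in the Ctcfl line. In wild type they were 9.23 with it and 8.08 without it. The retinoic acid arrays were again the higher pair in both lines, by 1.998-fold in the Ctcfl line and 2.21-fold in wild type. Gli2 rose 2.10-fold on average (log2 1.07 ± 0.15, SE, adjusted p = 0.0118 in limma).

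Gli3, the main source of the Gli repressor, had log2 signals of 10.70 with retinoic acid and 9.76 without it in the Ctcfl line. In wild type they were 10.78 with it and 9.84 without it. The 2 lines gave nearly the same response, log2 0.93 and 0.94, and Gli3 rose 1.91-fold on average (log2 0.94 ± 0.15, SE, adjusted p = 0.0175 in limma). Gli1, an activator that is itself a target of the pathway, had log2 signals of 7.78 with retinoic acid and 7.70 without it in the Ctcfl line, and of 7.42 with it and 7.74 without it in wild type. It was 1.26-fold lower in wild type, just past the technical SD. In the Ctcfl line it was 1.06-fold higher, a difference of less than that SD. Gli1 did not pass (adjusted p = 0.688 in limma).

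Ptch1, the ligand receptor and a target of the pathway, had log2 signals of 10.32 with retinoic acid and 10.21 without it in the Ctcfl line. In wild type they were 10.03 with it and 10.56 without it. With retinoic acid it was 1.44-fold lower in wild type, more than the technical SD, while in the Ctcfl line the states differed by less than that SD. Averaged over the lines its difference was log2 -0.21 ± 0.19 (SE, adjusted p = 0.542 in limma).

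In all, 3 of the 9 genes rose with retinoic acid in limma, 0 fell and 6 did not pass. Over all genes tested 4.21% rose and 2.44% fell. The median of the 9 genes was log2 0.10 in the Ctcfl line and -0.04 in wild type, where the medians over all genes were -0.05 and -0.04. At the level of single arrays, 1 of the 9, Hhip, was at least 2-fold higher with retinoic acid in the Ctcfl line, where 3.21% of all genes were. In wild type the 1 gene at least 2-fold higher was Gli2, where 2.58% of all genes were. In neither line was any of the 9 at least 2-fold lower, where 1.5% of all genes were in the Ctcfl line and 2.62% in wild type.

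Hhip, a membrane protein that binds and holds Hedgehog ligands, was much higher with retinoic acid on the arrays of the Ctcfl line and not on those of wild type. Its log2 signals were 8.98 with retinoic acid and 6.37 without it in the Ctcfl line, and 7.43 with it and 7.59 without it in wild type. The order from high to low was thus the Ctcfl line in retinoic acid, undifferentiated wild type, wild type in retinoic acid and the undifferentiated Ctcfl line. Only the middle pair, the 2 wild-type arrays, lay closer together than the technical SD. With retinoic acid Hhip was 6.11-fold higher in the Ctcfl line (log2 2.61) and 1.11-fold lower in wild type (log2 -0.16). The signal of the undifferentiated Ctcfl line was below the olfactory receptor 95th percentile of 6.91 on that array, so the fold against it is not exact. Set against that percentile instead, the retinoic acid signal was 4.20-fold above it.

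The difference between the lines' responses was log2 2.77 for Hhip, which takes in the same signal below background and is not exact either. With that signal raised to the olfactory receptor 95th percentile of its array, the difference was log2 2.23, or 4.68-fold. Such a difference was at least 2-fold higher in 1.9% of all genes and lower in 0.754%, and among the 9 Hedgehog genes it was so for Hhip alone, upwards. The responses of Ptch1 differed by log2 0.62 and those of Gli1 by 0.41, in the same direction. Those of Ihh differed by -0.34, just past the technical SD of 0.321, while Smo, Gli2 and Gli3 lay between -0.23 and -0.0048. The values of Shh, -0.45, and Dhh, -0.06, come from signals below the olfactory receptor 95th percentile on every array. They are not read as changes of RNA. With 1 array for each condition these differences have no test. Averaged over the lines, the Hhip response of log2 1.23 ± 0.56 (SE) did not pass in limma (adjusted p = 0.250, and between 0.209 and 0.288 over the alternative settings).

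**Figure D2:**
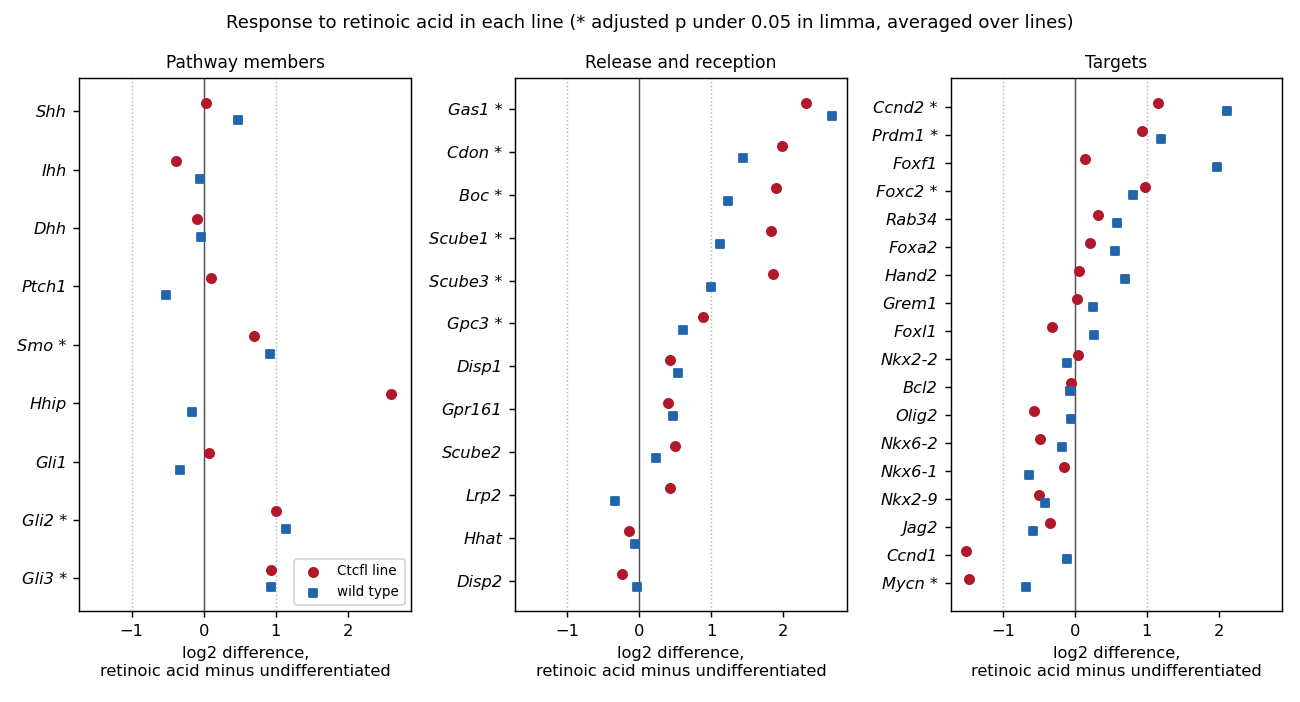
Log2 difference of retinoic acid minus undifferentiated cells in the Ctcfl line (circles) and in wild type (squares), for the Hedgehog genes, for genes of ligand release and reception and for targets, with dotted lines at 2-fold. Gas1, Cdon, Boc, Scube1 and Scube3 lie to the right in both lines, and the 2 points of Hhip lie at log2 2.61 and -0.16.

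Among the other genes of the pathway, several that help cells to release or receive the ligand rose with retinoic acid. Of 12 such genes measured, 6 rose in limma, 0 fell and 6 did not pass, beside the 4.21% that rose over all genes. Their median was log2 0.70 in the Ctcfl line and 0.57 in wild type. Gas1, Cdon and Boc, the cell surface co-receptors that present the ligand to Ptch1, all rose. Gas1 had log2 signals of 10.43 with retinoic acid and 8.11 without it in the Ctcfl line, and of 10.82 with it and 8.14 without it in wild type, and it rose 5.65-fold (adjusted p = 0.00103 in limma). Cdon rose 3.27-fold (adjusted p = 0.00493 in limma) and Boc rose 2.97-fold (adjusted p = 0.00815 in limma). All 3 were higher in 2 of 2 lines.

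Scube1 and Scube3, secreted proteins of a family that carries lipid-modified ligand away from the producing cell, rose 2.79-fold and 2.70-fold (adjusted p = 0.0111 and 0.0172 in limma). Gpc3, a glypican that competes with Ptch1 for the ligand, rose 1.68-fold (adjusted p = 0.042 in limma). Disp1, which exports the ligand, differed by log2 0.43 in the Ctcfl line and 0.54 in wild type and did not pass (adjusted p = 0.115 in limma). Hhat, which attaches palmitate to the ligand, lay below the olfactory receptor 95th percentile on all 4 arrays, as did Disp2.

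Genes of the cilium and of signal transduction inside the cell did not pass. Of 26 measured, among them Sufu, which restrains the Gli proteins, the ciliary kinesin gene Kif7 and the intraflagellar transport gene Ift88, 0 passed for retinoic acid in limma, and 9 had an unadjusted p under 0.05, or 34.6%, where 23.5% of all genes did. Sufu had log2 signals of 10.38 with retinoic acid and 10.35 without it in the Ctcfl line, and of 10.53 with it and 10.24 without it in wild type. The list median was log2 0.20 in the Ctcfl line and 0.15 in wild type. Of the 26, 73.1% were higher with retinoic acid in the Ctcfl line, where 44.3% of all genes were. In wild type 65.4% were, beside 45.3% of all genes.

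The 18 further targets moved in more than 1 direction: 3 rose, 1 fell and 14 did not pass, where 4.21% of all genes rose and 2.44% fell. An unadjusted p under 0.05 was found for 9 of the 18, or 50%, and for 23.5% of all genes. Their medians were log2 -0.01 in the Ctcfl line and 0.10 in wild type. Ccnd2, a G1 cyclin, rose 3.11-fold (adjusted p = 0.0139 in limma). Prdm1, a transcriptional repressor, rose 2.09-fold (adjusted p = 0.0138 in limma). Foxc2, a forkhead factor of somites and mesenchyme, rose 1.86-fold (adjusted p = 0.0216 in limma). Mycn, a growth regulator of neural progenitors, fell 2.10-fold (adjusted p = 0.0364 in limma). Many of these genes answer to other signals too.

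Markers of the tissues that Hedgehog patterns were read on the same arrays. Their counts stand beside the 4.21% of all genes that rose and the 2.44% that fell. Of 7 ventral neural tube genes, 0 rose and 0 fell with retinoic acid in limma. All of them but Ferd3l are also in the list of targets above, and Foxa2 is an endoderm marker too. These lists are thus not separate readings. Averaged over the lines, 6 of the 7 ventral genes had effects below 0, where 57.2% of all genes did, with a median of log2 -0.31. That median is the value of Olig2, and the effects of Ferd3l and Nkx2-2 were only log2 -0.05 and -0.04. Nkx2-9, a homeobox gene of the ventral neural tube and a Hedgehog target, had log2 signals of 7.43 with retinoic acid and 7.94 without it in the Ctcfl line, and of 7.59 with it and 7.999 without it in wild type. It was the 1 ventral gene of 7 with an unadjusted p under 0.05, where 23.5% of all genes had one. The average effect of Nkx2-9, log2 -0.46, did not pass (adjusted p = 0.13 in limma). Nkx6-1, a homeobox gene of ventral progenitors, differed by log2 -0.15 in the Ctcfl line and -0.64 in wild type (adjusted p = 0.235 in limma). Foxa2, a floor plate and endoderm factor, differed by log2 0.21 in the Ctcfl line and 0.56 in wild type (adjusted p = 0.22 in limma). Olig2, of motor neuron progenitors, and Ferd3l were below the olfactory receptor 95th percentile on all 4 arrays. The effects of Olig2 and Ferd3l are not read as changes of RNA. Of 10 dorsal neural tube genes, 3 rose and 0 fell. Msx2, a homeobox gene of the dorsal midline, rose 3.34-fold (adjusted p = 0.00228 in limma), Pax3, a dorsal progenitor factor, rose 2.20-fold (adjusted p = 0.00904), and Wnt1, a dorsal midline signal, rose 2.16-fold (adjusted p = 0.00996). Of 5 neural progenitor markers 3 rose and 1 fell. The transcription factor genes Sox1 and Pax6 rose 3.41-fold and 3.15-fold (adjusted p = 0.0111 and 0.0188 in limma), and Fabp7, a fatty acid binding protein gene of radial glia, fell by 1.68 on the log2 scale (adjusted p = 0.00263 in limma).

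Of 8 endoderm markers 1 rose and 0 fell. Gata6, a transcription factor of primitive endoderm, rose 8.47-fold (adjusted p = 0.000608 in limma), while Dab2 and Ttr, at log2 0.87 and 0.78 on average, did not pass (adjusted p = 0.0866 and 0.12 in limma). Of 9 mesenchyme markers 3 rose, Foxc2 among them, and 0 fell. The matrix gene Dcn had log2 signals of 8.81 with retinoic acid and 5.90 without it in the Ctcfl line, and of 10.64 with it and 5.94 without it in wild type (adjusted p = 0.00401 in limma). Both undifferentiated signals of Dcn were below the olfactory receptor 95th percentile, so no fold is given. Pdgfra, a growth factor receptor gene, rose 2.19-fold (adjusted p = 0.0245 in limma), and the transcription factor gene Twist1, at log2 -0.26 in the Ctcfl line and 2.39 in wild type, did not pass (adjusted p = 0.289 in limma). Of the 8 pluripotency markers 6 fell and 0 rose. Utf1 fell by 3.41 and Dnmt3b, a DNA methyltransferase gene, fell by 2.82 on the log2 scale (adjusted p = 0.000529 in limma for each). Tdgf1, a Nodal co-receptor gene, had log2 signals of 6.76 with retinoic acid and 11.33 without it in the Ctcfl line, and of 6.09 with it and 9.78 without it in wild type (adjusted p = 0.000571 in limma), and both retinoic acid signals were below the olfactory receptor 95th percentile. Zfp42, a marker of naive pluripotent cells, was below the olfactory receptor 95th percentile on all 4 arrays.

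Between the lines, Hhip was the 1 Hedgehog gene at least 2-fold apart in either state. In retinoic acid it was 2.92-fold higher in the Ctcfl line than in wild type (log2 1.55), the 29th highest difference of 18310, where 0.83% of all genes were past 2-fold upwards and 0.399% downwards. In undifferentiated cells it was 2.33-fold lower in the Ctcfl line (log2 -1.22), where 1.09% of all genes were past 2-fold downwards and 0.726% upwards. The second of these folds rests on the signal below background of the undifferentiated Ctcfl line. Against the olfactory receptor 95th percentile of that array, the undifferentiated wild-type signal was 1.60-fold above it. The 2 line differences of Hhip had opposite signs, so its line effect averaged over the states was small and did not pass, at log2 0.16 ± 0.56 (SE, adjusted p = 0.953 in limma).

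The other 8 genes had line differences between log2 -0.27 and 0.37 in retinoic acid and between -0.34 and 0.33 in undifferentiated cells. The largest of these were Gli1 in retinoic acid, 1.29-fold higher in the Ctcfl line, and Ptch1 in undifferentiated cells, 1.27-fold lower in the Ctcfl line. Ptch1 was 1.22-fold higher in the Ctcfl line in retinoic acid. For the line, 0 of the 9 genes rose in limma, where 0.0273% of all genes did, and 0 fell, where 0.0164% did; 0 of the 9 had an unadjusted p under 0.05. Gli2 came nearest, at log2 0.26 ± 0.15 (SE, adjusted p = 0.619 in limma).

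**Figure D3:**
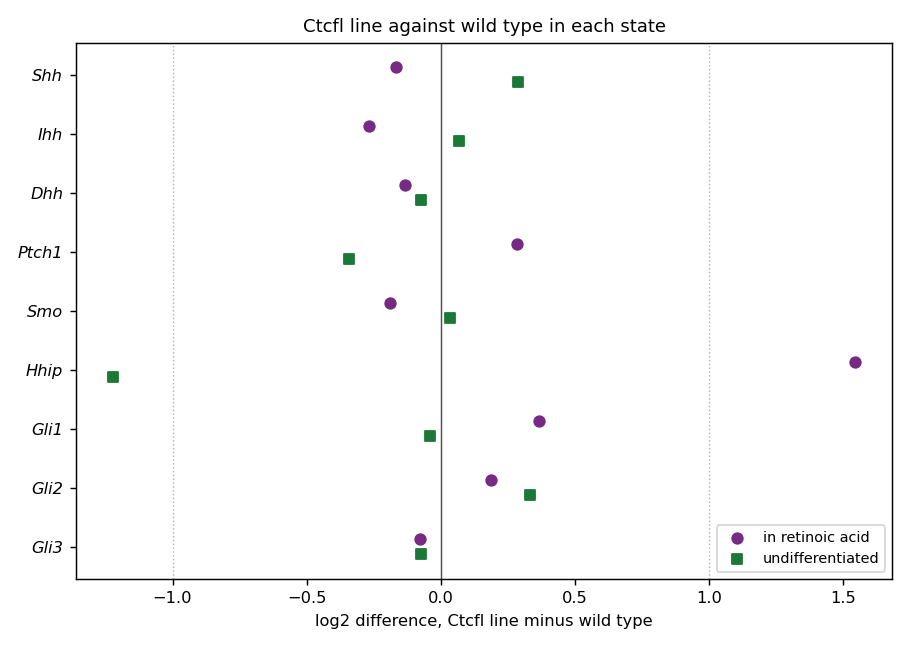
Log2 difference of the Ctcfl line minus wild type for each Hedgehog gene in retinoic acid (circles) and in undifferentiated cells (squares), with dotted lines at 2-fold. Hhip lies at 1.55 and -1.22, and the other 8 genes lie between -0.34 and 0.37.

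Of the 56 other pathway genes, 0 passed in either direction for the line in limma, and 7 had an unadjusted p under 0.05, or 12.5%, where 9.81% of all genes did. Single genes were apart in 1 state. Foxf1, a forkhead factor of gut and lung mesenchyme and a target of the pathway there, had log2 signals in retinoic acid of 7.42 in the Ctcfl line and 9.11 in wild type, 3.23-fold lower in the Ctcfl line. Ccnd1, a G1 cyclin, had log2 signals in undifferentiated cells of 11.34 in the Ctcfl line and 9.52 in wild type, 3.53-fold higher in the Ctcfl line.

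Cell type markers also differed between the retinoic acid arrays. Over all genes, 46.1% were higher in the Ctcfl line than in wild type there. Of 8 endoderm markers 0 were, with summed linear signals of 2989.9 in the Ctcfl line and 5280.6 in wild type. Gata6, at log2 10.08 in the Ctcfl line and 11.24 in wild type, made up much of these sums, which without it were 1904.2 in the Ctcfl line and 2857.4 in wild type. Of 9 mesenchyme markers 1, Pdgfra, was higher in the Ctcfl line, with sums of 2641.8 in the Ctcfl line and 4599.0 in wild type. Among the lower ones, Col1a1, Foxc2 and Col3a1 differed by only log2 -0.01, -0.02 and -0.14, less than the technical SD. Prrx1, at log2 6.62 in the Ctcfl line, was below the olfactory receptor 95th percentile there. Foxf1, described above as a target, is itself among these 9 markers and in their sums, as is Foxc2. Without Dcn, the gene of highest signal in wild type, the sums were 2193.2 in the Ctcfl line and 3007.1 in wild type. Twist1, with log2 signals of 7.48 in the Ctcfl line and 9.56 in wild type, was also among the lower ones. Sox17, an endoderm marker, was below the olfactory receptor 95th percentile in the Ctcfl line and above it in wild type, at log2 6.78 and 7.04. Of 8 pluripotency markers 6 were higher in the Ctcfl line, with sums of 5998.5 in the Ctcfl line and 4845.0 in wild type. Of these 6, Pou5f1, Dnmt3b and Sox2 differed by log2 0.04, 0.04 and 0.13, less than the technical SD. Tdgf1 was below the olfactory receptor 95th percentile on both retinoic acid arrays, and Utf1 was higher by log2 0.49. Nanog, a core pluripotency factor, had log2 signals of 10.05 in the Ctcfl line and 8.47 in wild type, and without it the sums were 4939.1 in the Ctcfl line and 4490.9 in wild type. Of the neural lists, 4 of 5 progenitor, 7 of 10 dorsal and 1 of 7 ventral markers were higher in the Ctcfl line. Most dorsal and ventral markers differed by less than the technical SD or lay below the olfactory receptor 95th percentile on both arrays. Fewer cells of a type and less RNA in each cell cannot be told apart in such samples. The part of cell composition in the Hhip and Foxf1 differences was not tested.

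The genes whose profiles were most like those of Hhip and Gli2, the 2 genes with the largest range over the arrays, were found by Euclidean distance between log2 profiles centred on each gene's mean of 4 arrays. For Hhip they were Ebf1, Acss1, Olfm2, Tmem108 and Ypel2, at distances between 0.605 and 0.712. Each had its highest signal in the Ctcfl line in retinoic acid and its lowest in the undifferentiated Ctcfl line, a shape that follows from the choice by distance. Unlike Hhip, the nearest gene Ebf1 was higher with retinoic acid in wild type, at log2 9.04 against 8.46 without it. Tmem108 and Ypel2 were also higher there, while Acss1 and Olfm2 were lower. Olfm2, an olfactomedin gene, had log2 signals of 8.89 with retinoic acid and 7.15 without it in the Ctcfl line, and of 7.69 with it and 7.80 without it in wild type. For Gli2 they were Glb1l, Mmgt2, Pcdhb11, Maged1 and Fndc5, at distances between 0.058 and 0.117. A distance over 4 arrays describes these arrays, and many genes follow a pattern as simple as that of Gli2.

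**Figure D4:**
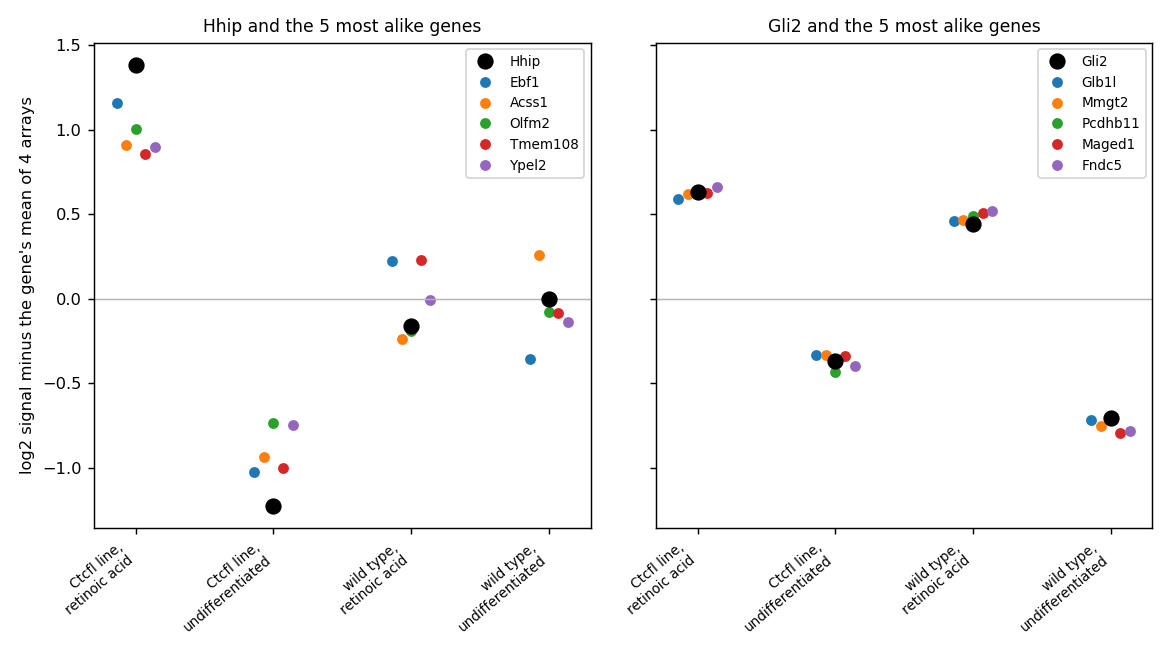
Log2 signal minus the gene's mean of 4 arrays for Hhip (left) and Gli2 (right), in black, and for the 5 genes with the smallest Euclidean distance to each, in colour. The genes alike to Hhip lie up to 0.712 away over the 4 arrays, and those alike to Gli2 within 0.117.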

How the data were processed

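The authors deposited log2 values made by RMA in Affymetrix Expression Console, per the labels. Transcriptome Analysis Console also appears in the submitters' processing notes, and versions and build are not given in the sources used here. Of 41345 probe sets, 23521 had 1 gene symbol, 1814 had several and 16010 had none in the platform annotation. Where several single-symbol probe sets stood for a gene the one of highest mean was used, with no further normalization. Log2 differences between single arrays had no test. Averaged effects came from limma 3.58.1 in R 4.3.3 (lmFit and eBayes, retinoic acid and line as additive terms, prior of 5.49 degrees of freedom). Tests were two-sided, with Benjamini-Hochberg adjustment over 18310 genes and a threshold of 0.05. The fit was run on simulated data in which both lines responded alike. Such data do not check its use of the lines' unequal response as error. The number of arrays limits the precision. Promoter windows of the same start were counted once.

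Members and lists were chosen with earlier results of these data known. Named list genes were up to 6 passing limma with the largest retinoic acid effects, and up to 4 at least 2-fold apart between lines. Also named were the 3 largest effects of each marker list. Disp1, Disp2, Hhat, Sufu, Kif7, Ift88, Olig2, Ferd3l, Nkx2-2, Zfp42, Sox17, Nanog, Pou5f1 and Sox2 were chosen after their values were seen. So were Col1a1, Col3a1 and Prrx1. Tried as alternatives were quantile normalization, filtering at log2 7 or not at all, averaging probe sets, letting limma's variance prior follow the mean, requiring 2-fold for a call, and a threshold of 3-fold.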

Additional observations from a re-analysis of the deposited data

Results flagged for a closer look

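Hhip moved in opposite directions between the lines in the 2 states: the Ctcfl line minus wild type was log2 1.55 in retinoic acid and -1.22 in undifferentiated cells, the second with the Ctcfl line below the olfactory receptor 95th percentile. Ptch1 did the same on a smaller scale, with 0.28 in retinoic acid and -0.34 in undifferentiated cells, each just beyond the technical SD of its comparison (0.226 and 0.262). Both Ptch1 values were smaller in size than the SD of these differences over all genes, 0.315 in retinoic acid and 0.357 in undifferentiated cells. With 1 array for each condition, neither difference between the states was tested. The probe set that names Shh together with another gene, used in no comparison, was higher by log2 1.60 with retinoic acid in wild type, while the probe set of Shh alone differed by 0.48 there and stayed below the olfactory receptor 95th percentile.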

How the results depend on the processing

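The 3 genes that rose with retinoic acid, Smo, Gli2 and Gli3, passed in limma without the filter, with a filter at log2 7, with quantile normalization, with the mean of probe sets and with a variance prior that follows mean expression. Their adjusted p lay between 0.0182 and 0.0396 for Smo, 0.00926 and 0.0157 for Gli2, and 0.0113 and 0.0230 for Gli3. When a call also had to be at least 2-fold, only 1 of the 3, Gli2, remained, with Smo at log2 0.81 and Gli3 at 0.94, and the calls over all genes were 672 in place of 1217. Over all genes the line effect passed in 23 genes with quantile normalization and 15 with the variance prior by mean, in place of 8, and in 0 of the 9 Hedgehog genes under each setting. With a 3-fold threshold 0 Hedgehog genes were apart for retinoic acid in wild type, where Gli2 was at 2-fold, and 0 for the line in either state, where Hhip was; Hhip stayed past it for retinoic acid in the Ctcfl line and for the difference of responses. Over all genes that threshold left 285 genes for retinoic acid in the Ctcfl line, 338 in wild type, 48 for the line in retinoic acid, 49 in undifferentiated cells and 96 for the difference of responses. Shh and Dhh were not past the filter at log2 7 and gave no value there. No paired analysis was possible because the labels give no replicate numbers to block on; the additive fit already compares the states within each line, and without 1 of the 4 arrays it would have no residual degrees of freedom. Under the settings run, no limma estimate of the 9 genes and no difference of at least 2-fold among them changed sign. Only quantile normalization could alter the limma estimates, because each gene had 1 probe set and the other settings leave such estimates unchanged. With it the smaller Gli1 difference for retinoic acid in the Ctcfl line went from log2 0.08 to -0.01. Differences of single arrays could also move when Hhip signals were raised to the olfactory receptor 95th percentile. Raising signals to that background percentile, chosen after seeing the data, kept Hhip past 3-fold for retinoic acid in the Ctcfl line (4.20-fold) and for the difference of responses (4.68-fold), and took its line difference in undifferentiated cells below 2-fold, to log2 -0.68. Signals below the olfactory receptor 95th percentile limit what can be said of Shh, Dhh and undifferentiated Hhip in the Ctcfl line.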
